A study of Mus musculus with 12 samples.

Results

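The miRNAs described here are the 4 dominant arms of the miR-10 and miR-196 families, mmu-mir-10a-5p, mmu-mir-10b-5p, mmu-mir-196a-5p and mmu-mir-196b-5p, whose genes lie inside the Hox clusters. They were chosen by name, as 4 of the 1251 miRNA rows of the deposited table, and all 4 were among the 544 rows tested. The study compared miRNA sequencing of mouse skin and of cutaneous squamous cell carcinoma (SCC) in C57Bl6 mice that were wild-type (WT) or TAp63-/-. TAp63-/- mice lack the isoforms of the transcription factor p63 that carry the N-terminal transactivation domain. Skin was dorsal skin of untreated mice aged 4 weeks, with 3 WT and 3 TAp63-/- libraries. Tumours came from mice older than 35 weeks after chronic exposure to ultraviolet light (UVR), with 3 doses a week of 2.5 kJ per square metre, with 2 WT and 4 TAp63-/- libraries. All 12 libraries share the strain, and the labels name no Cre driver for the deletion and no body site for the tumours. Age and UVR go with tissue in every library, as does the prefix of the sample titles, so that their effects and that of the tumour cannot be told apart.

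Hox genes encode transcription factors that set position along the body axis, and adult skin fibroblasts keep a Hox pattern that depends on where in the body they came from. The miR-10 and miR-196 genes are embedded among them and are themselves expressed in a positional pattern. miR-196 is known to cleave the Hoxb8 mRNA, and miR-10b is known for raised levels and pro-invasive activity in metastatic breast cancer. Both families act through their seed, the bases near the 5′ end that pair with target mRNAs.

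The 4 mature sequences are shown because their likeness bears on every level below. They were read from RefSeq (GRCm38.p6), which matched all 4 names, and are written 5′ to 3′ with the seed, bases 2 to 8, in capitals.
mmu-mir-10a-5p: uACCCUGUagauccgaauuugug
mmu-mir-10b-5p: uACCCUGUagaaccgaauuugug
mmu-mir-196a-5p: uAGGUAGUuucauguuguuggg
mmu-mir-196b-5p: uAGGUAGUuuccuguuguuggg
Counted from 1 at the 5′ end, mmu-mir-10a-5p and mmu-mir-10b-5p differ only by U12A, and mmu-mir-196a-5p and mmu-mir-196b-5p only by A12C, both outside the seed. Of 1679 mature mouse miRNA names in the RefSeq table, no other carries either seed. The nearest other mature miRNA to mmu-mir-10a-5p was miR-100-5p, 3 edits away and 4 from mmu-mir-10b-5p, and the nearest to mmu-mir-196a-5p beside its paralogue was 7 edits away. How the authors assigned reads that could match both members of a pair is not given in the sources used here, so a part of either level may belong to its paralogue.

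In mm10, the Mir10a hairpin lies on chromosome 11 at 96317165 to 96317274 on the plus strand, between Hoxb5 and Hoxb4. The Mir10b hairpin lies on chromosome 2 at 74726070 to 74726137 on the plus strand, in introns of annotated Hoxd4 and Hoxd3 transcripts. Mature mmu-mir-196a-5p comes from 2 hairpins with the same mature sequence, so its level cannot be assigned to 1 locus. Mir196a-1 lies on chromosome 11 at 96265164 to 96265265, plus strand, between Hoxb13 and Hoxb9. Mir196a-2 lies on chromosome 15 at 102973350 to 102973434, plus strand, between Hoxc10 and Hoxc9 and in an intron of a Hoxc5 transcript. Mir196b lies on chromosome 6 at 52230081 to 52230165 on the minus strand, where it overlaps an exon of 2 Hoxa9 transcripts and an intron of another. All 5 hairpins lie between the outermost Hox genes of their clusters.

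Levels are the authors' log2 values. From the values, these had been made equal in distribution between libraries (quantile normalized), so each rank has 1 value: rank 1 is 20.00 in every library, rank 2 is 19.25, rank 3 is 18.75, rank 4 is 18.49 and rank 5 is 18.21. The smallest value, 3.32, is the log2 of a linear floor of 10. These values carry no read totals, and the depth is therefore unknown. From 370 to 545 rows were above the floor per library, with the most in TAp63-/- SCC replicates 3 (545) and 2 (489). No pair among the 12 libraries held identical values. Nothing in the labels says that the samples of a group are different mice, so p-values reflect only how far these samples spread, which may be technical.

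The miR-10 pair held the top of the abundance order in skin, and mmu-mir-10b-5p lost that place in every tumour. mmu-mir-10b-5p was at 20.00 in all 6 skin libraries, which is rank 1. In WT SCC it was at 18.49 and 18.75 (ranks 4 and 3), and in TAp63-/- SCC at 18.21, 18.21, 17.54 and 18.00 (ranks 5, 5, 8 and 6). All 6 tumours therefore lay below all 6 skin libraries. Full separation is not particular to this miRNA: mmu-mir-205-5p, given below, was higher in every tumour than in any skin library. The share of all tested miRNAs that separate was not counted. Averaged over the genotypes, mmu-mir-10b-5p fell by 1.69 ± 0.14 on the log2 scale (SE), or 3.23-fold (adjusted p = 1.29e-05, limma with Benjamini-Hochberg adjustment over 544 miRNAs). Calls were common in this comparison: 41.9% of the tested miRNAs passed, 111 up and 117 down, beside 1 of the 4 members. In bulk tissue, fewer cells of a type and less RNA per cell cannot be told apart.

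The fall of mmu-mir-10b-5p passed the test in each genotype. In WT it was 1.38 ± 0.22 lower in SCC on the log2 scale (adjusted p = 0.00232, limma), where 18.2% of miRNAs were called and 1 of the 4 members. In TAp63-/- it was 2.01 ± 0.19 lower (adjusted p = 4.16e-05, limma), where 34.2% were called and again 1 of the 4. The difference between these tumour effects, TAp63-/- minus WT, was -0.63 ± 0.29 (adjusted p = 0.613, limma), with a 95% interval from -1.26 to 0.01. With the same fixed skin value in both genotypes, this estimate equals the difference between the tumours of the genotypes given below and is no separate result. Since the highest rank has a fixed value, the skin level could not exceed 20.00 in either genotype, and the fold describes a loss of rank as well as of level. The fixed value also leaves mmu-mir-10b-5p with an SD of 0 in skin, which lowers its pooled spread. Its SEs, intervals and limma p-values, averaged or by genotype, may therefore be too small.

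Ranks do not depend on a scaling that multiplies a whole library, but in these values each rank has 1 value. The rank test therefore restates the level and is no separate support for the fall. The mean rank of mmu-mir-10b-5p was 3.75 places further down in SCC than in skin, 2.5 places in WT and 5 in TAp63-/- (exact permutation of tissue within genotype, two-sided p = 0.00286, the smallest that 350 arrangements can give, adjusted p = 0.0257 over 18 tests of ranks, within-library differences and shares). Leaving out any 1 TAp63-/- skin or WT SCC library gave adjusted p-values of 0.0533 to 0.0643, with fewer arrangements, and differences of 3.5 to 4 places. In 5 tumours the top place was taken by mmu-mir-21a-5p, an abundant miRNA of squamous tumours, and in WT SCC replicate 2 by mmu-mir-27b-3p.

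**Figure D1:**
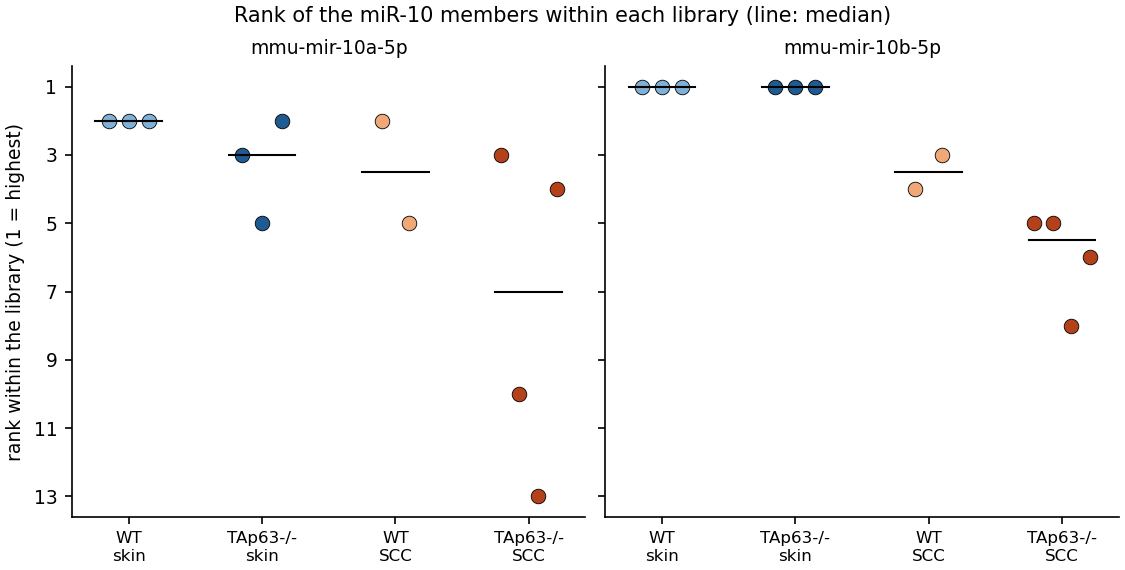
Rank of mmu-mir-10a-5p and mmu-mir-10b-5p within each library (vertical axis, 1 is the highest level), one point per library in the 4 groups, with the group median as a line. mmu-mir-10b-5p is at rank 1 in all 6 skin libraries and at ranks 3 to 8 in the 6 tumours, while mmu-mir-10a-5p runs from rank 2 to rank 13 with overlap between skin and tumours.

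mmu-mir-10a-5p, the Hoxb member with the same seed, was at 19.25 (rank 2) in all 3 WT skin libraries. In TAp63-/- skin it was at 18.75, 18.21 and 19.25, which are ranks 3, 5 and 2. WT SCC gave 19.25 and 18.21 (ranks 2 and 5), and TAp63-/- SCC gave 18.75, 17.23, 16.78 and 18.49 (ranks 3, 10, 13 and 4). Skin and tumours overlapped: only TAp63-/- SCC replicates 2 and 3 lay below all skin libraries. The averaged tumour effect was -0.72 ± 0.36 on the log2 scale (adjusted p = 0.138, limma), with a 95% interval from -1.52 to 0.07, so no difference was called. This interval overlaps that of mmu-mir-10b-5p, from -2.01 to -1.37. The values were -0.52 ± 0.56 in WT and -0.92 ± 0.47 in TAp63-/- (adjusted p = 0.584 and 0.146, limma). The WT value rests on 2 unlike tumours: leaving out WT SCC replicate 1 gave -1.04, and leaving out WT SCC replicate 2 gave 0.

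The balance of the pair was compared within each library. Since each rank has 1 value, every fold here is the gap between 2 ranks, and 1.68-fold is that between ranks 1 and 2. The comparison and its test therefore restate the ranks and are no separate support. mmu-mir-10b-5p exceeded mmu-mir-10a-5p in all 6 skin libraries, by 1.68-fold in WT skin and TAp63-/- skin replicate 3, 2.37-fold in TAp63-/- skin replicate 1 and 3.45-fold in replicate 2. In tumours mmu-mir-10a-5p was the higher of the pair in 3 of 6, by 1.69-fold in WT SCC replicate 1, 1.45-fold in TAp63-/- SCC replicate 1 and 1.40-fold in TAp63-/- SCC replicate 4. The log2 difference, mmu-mir-10a-5p minus mmu-mir-10b-5p, was -1.01 ± 0.43 (SD, n = 6) in skin and -0.08 ± 0.76 (SD, n = 6) in SCC. Averaged over the genotypes it was 0.97 higher in SCC (exact permutation p = 0.00857, two-sided), which did not pass after adjustment (adjusted p = 0.0514).

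Together the 4 miRNAs made up 27.5% to 27.6% of the summed linear values of a WT skin library and 22.3% to 27.5% of a TAp63-/- skin library. These are shares of normalized values, not of reads. The linear sum was about equal in all libraries, and mmu-mir-10b-5p at rank 1 made up 17.3% of it in each skin library. The shares therefore restate the ranks, and their test is no separate support. The share was 12.3% and 16.4% in WT SCC and 5.01% to 12.3% in TAp63-/- SCC, so that no tumour reached the level of any skin library. The miR-196 pair contributed at most 0.0611% in any library, and nearly all of the share was therefore miR-10. The share was 14.6 percentage points lower in SCC, 13.2 in WT and 16.0 in TAp63-/- (exact permutation p = 0.00286, adjusted p = 0.0257). It was 4.14 percentage points lower in TAp63-/- than in WT within tissue (exact permutation p = 0.0233, adjusted p = 0.084), which did not pass.

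**Figure D2:**
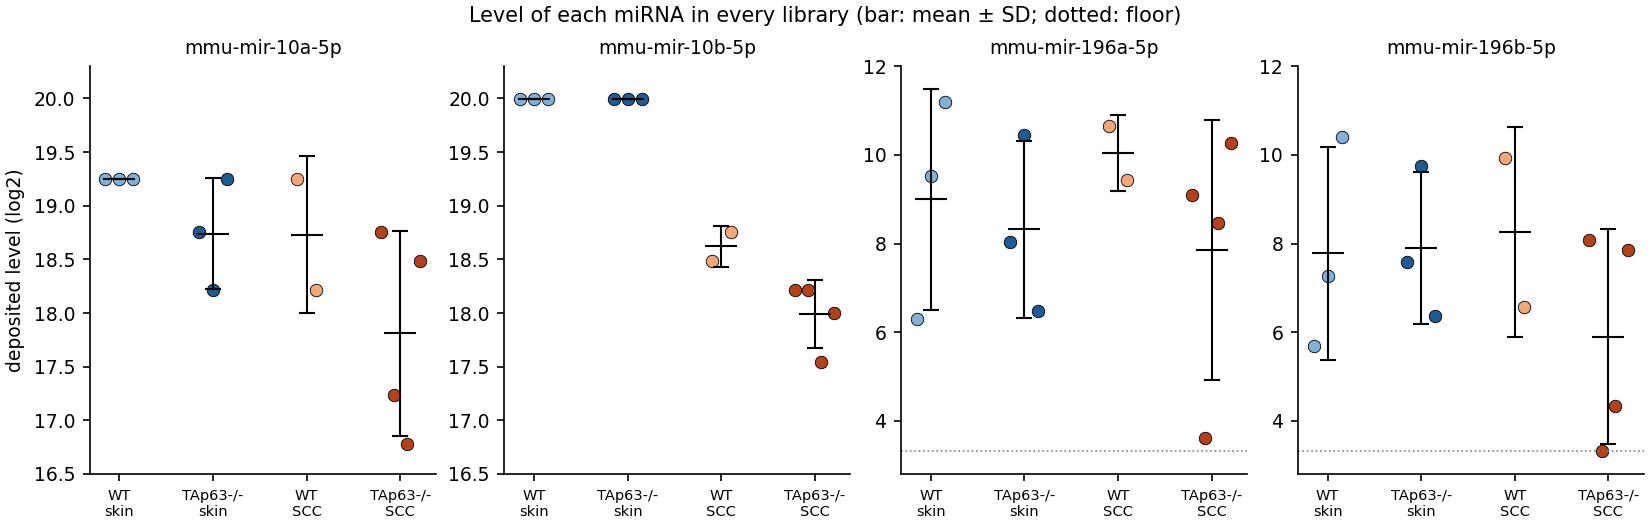
Deposited log2 level (vertical axis) of each of the 4 miRNAs in every library, by group (3 libraries for each genotype in skin, 2 for WT SCC and 4 for TAp63-/- SCC), with the mean and SD as a bar and the floor of 3.32 dotted. mmu-mir-10b-5p separates all tumours from all skin libraries, whereas the skin and tumour libraries of both miR-196 members overlap over a wide range.

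Markers of other cell types were read beside this fall, against the 41.9% called among all tested miRNAs. The keratinocyte miRNAs mmu-mir-205-5p and mmu-mir-203-3p were present throughout: the first at 16.29 to 16.78 in skin and 17.72 to 18.75 in SCC, the second at 17.23 to 18.21 in skin and 16.29 to 17.40 in SCC. The summed linear level of the 5 striated muscle miRNAs was 66530 to 90040 in skin and 4750 to 31460 in SCC, with 4 of 5 falling and mmu-mir-499-5p at the floor in all skin libraries. Of 7 fibroblast and stroma miRNAs, 3 fell and none rose, with summed levels of 218000 to 694400 in skin and 177600 to 436700 in SCC. Of 7 keratinocyte and epithelial miRNAs, 1 rose and 1 fell, with sums of 329700 to 456700 in skin and 317800 to 634600 in SCC. Of these sums mmu-mir-205-5p alone made up 17.49% to 34.15% in skin and 47.87% to 69.57% in SCC. Without it the list summed to 217100 to 376800 in skin and 102000 to 249000 in SCC, which overlap. Both melanocyte miRNAs fell, 2 of 4 tested leukocyte miRNAs rose (mmu-mir-155-5p was at the floor in every library), 2 of 3 red cell miRNAs rose, and 1 of 2 endothelial miRNAs rose. The red cell sums overlapped, at 34960 to 74780 in skin and 16980 to 96940 in SCC. Of these sums mmu-mir-486-5p, which was not called, made up 64.54% to 97.03%. The shares called in the stroma, leukocyte and endothelial lists are near that of all tested miRNAs. The part of these cell types in the fall of mmu-mir-10b-5p was not tested.

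The TAp63-/- genotype gave no call for any member. In skin, 0 of the 544 miRNAs were called (0%, limma), 31 had an unadjusted p under 0.05, and the alternatives called 0 to 22. mmu-mir-10b-5p had the same fixed value in all 6 skin libraries, so its difference was 0.00. Its 95% interval, from -0.44 to 0.44, takes its width from the tumours and from other miRNAs, since mmu-mir-10b-5p showed no spread in skin. mmu-mir-10a-5p differed by -0.51 ± 0.50 (adjusted p = 1, limma). In TAp63-/- skin replicates 1 and 2, where mmu-mir-10a-5p had ranks 3 and 5, the second place was held by mmu-mir-143-3p, a miRNA of smooth muscle and stroma that is named after its values were seen. The other 6 miRNAs of the stroma list summed to 71510 and 67850 there, against 49080 to 69040 in the other 4 skin libraries, which overlap.

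In tumours, 0.184% of the miRNAs were called between the genotypes, and 0 of the 4 members (limma, 46 of 544 at an unadjusted p under 0.05). The 1 call was mmu-mir-20b-5p, named after its values were seen, which is no Hox cluster miRNA. mmu-mir-10b-5p was lower in all 4 TAp63-/- tumours than in both WT tumours, at 17.54 to 18.21 against 18.49 and 18.75. That difference was -0.63 ± 0.21 on the log2 scale (unadjusted p = 0.0122, adjusted p = 0.345, limma) and did not pass. The share of tested miRNAs whose 4 TAp63-/- and 2 WT tumours separate was not counted, so this separation is not shown to be particular to mmu-mir-10b-5p. mmu-mir-10a-5p gave -0.92 ± 0.53 (adjusted p = 0.597, limma), with overlap between the groups. For the interaction, 0 of 544 were called (0%, limma), with 41 at an unadjusted p under 0.05 and 0 to 10 across the alternatives. With 2 WT tumours, these comparisons have little precision.

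The miR-196 pair was far less abundant and far more variable. mmu-mir-196a-5p, from the Hoxb and Hoxc clusters, was at 6.29, 9.52 and 11.20 in WT skin and at 8.03, 10.44 and 6.48 in TAp63-/- skin. In WT SCC it was at 10.64 and 9.43, and in TAp63-/- SCC at 9.09, 3.60, 8.47 and 10.27. High and low libraries occurred in every group of more than 2 libraries, and only TAp63-/- SCC replicate 2 lay below all skin libraries. Its ranks ran from 98 in WT skin replicate 3 to 445 in TAp63-/- SCC replicate 2, and the range was 193.7-fold on the linear scale. By group the ranks were 289.5, 153 and 98 in WT skin, 207, 122 and 279 in TAp63-/- skin, 116 and 155.5 in WT SCC, and 166, 445, 188 and 128 in TAp63-/- SCC, where tied values share a mean rank.

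mmu-mir-196b-5p, the Hoxa member, was at 5.68, 7.26 and 10.40 in WT skin and at 7.58, 9.75 and 6.36 in TAp63-/- skin. In WT SCC it was at 9.94 and 6.58. In TAp63-/- SCC it was at 8.07, 4.33 and 7.86 in replicates 1, 3 and 4 and at the floor in replicate 2. The 2 lowest tumours lay below all skin libraries and the other 4 within their range. Ranks of mmu-mir-196b-5p ran from 123 in WT skin replicate 3 to 390 in TAp63-/- SCC replicate 3, beside the library at the floor. No rank is given at the floor, where many rows are tied.

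No comparison of the miR-196 pair passed the test, and the intervals were wide. The averaged tumour effect was 0.29 ± 1.23 for mmu-mir-196a-5p (adjusted p = 0.848, limma), with a 95% interval from -2.41 to 2.98. For mmu-mir-196b-5p it was -0.76 ± 1.15 (adjusted p = 0.621, limma), with an interval from -3.28 to 1.76. A change as large as the fall of mmu-mir-10b-5p lies inside both intervals. In TAp63-/- against WT tumours, mmu-mir-196a-5p gave -2.18 ± 1.79 and mmu-mir-196b-5p -2.36 ± 1.67 (adjusted p = 0.715 for each, limma), and the groups overlapped. For mmu-mir-196a-5p 3 of 4 TAp63-/- tumours lay below both WT tumours, and for mmu-mir-196b-5p 2 of 4 did. Without TAp63-/- SCC replicate 2 the mmu-mir-196a-5p difference was -0.76, and over all single libraries left out it ran from -2.98 to -0.76. For mmu-mir-196b-5p, leaving out WT SCC replicate 1 gave -0.68, leaving out WT SCC replicate 2 gave -4.05, and leaving out TAp63-/- SCC replicate 2 gave -1.51.

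The spread between libraries of a group set the miR-196 pair apart from most miRNAs. The within-group SD was 2.42 for mmu-mir-196a-5p and 2.26 for mmu-mir-196b-5p, places 3 and 4 of the 544, against a median of 0.52. Among the 218 miRNAs in the upper 40% by mean level, mmu-mir-196a-5p had the highest SD, against a median of 0.45. Only mmu-let-7j (2.68) and mmu-mir-378d (2.54) were higher, with mean levels of 5.13 and 4.58, and they were above the floor in 8 and 4 libraries, whereas mmu-mir-196a-5p was above it in all 12. mmu-mir-10a-5p had an SD of 0.69, place 169, and mmu-mir-10b-5p 0.20, place 506, the latter with no spread in skin because its rank was fixed.

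**Figure D3:**
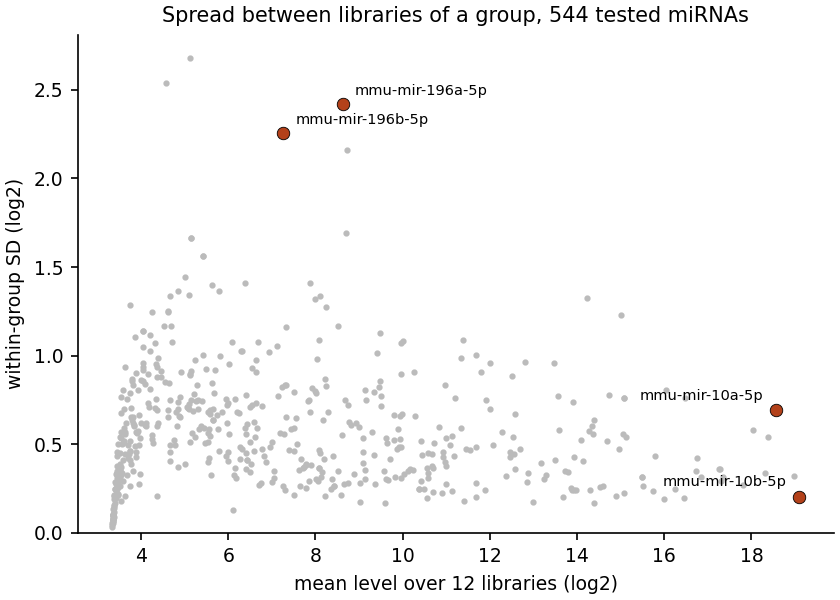
Within-group SD of the log2 level (vertical axis) against the mean level over 12 libraries (horizontal axis) for the 544 tested miRNAs in grey, with the 4 members in colour. The miR-196 members lie at SDs of 2.42 and 2.26, far above most miRNAs of like mean level, and the miR-10 members lie at the right edge with SDs of 0.69 and 0.20.

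The miR-196 members moved together between libraries of a tissue. The permutations for these relations pooled both genotypes within a tissue. Over the 6 skin libraries, Pearson's r between mmu-mir-196a-5p and mmu-mir-196b-5p was 0.933 (exact permutation p = 0.0125, adjusted p = 0.0292 over 7 relations) and Spearman's rho was 0.943 (exact permutation p = 0.0167, adjusted p = 0.0583). Over the 6 tumours r was 0.827 (exact permutation p = 0.0125, adjusted p = 0.0292) and rho was 0.829 (exact permutation p = 0.0583, adjusted p = 0.136). Without the 2 libraries farthest from the median of mmu-mir-196a-5p, r was 0.837 in skin and 0.721 in SCC. mmu-mir-196a-5p was the higher of the pair in 12 of 12 libraries, by 1.09-fold to 4.78-fold in skin and 1.21-fold to 17.6-fold in SCC, where the 1.21 is understated because mmu-mir-196b-5p was at the floor. The part of reads shared between sequences 1 base apart in this relation was not tested.

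**Figure D4:**
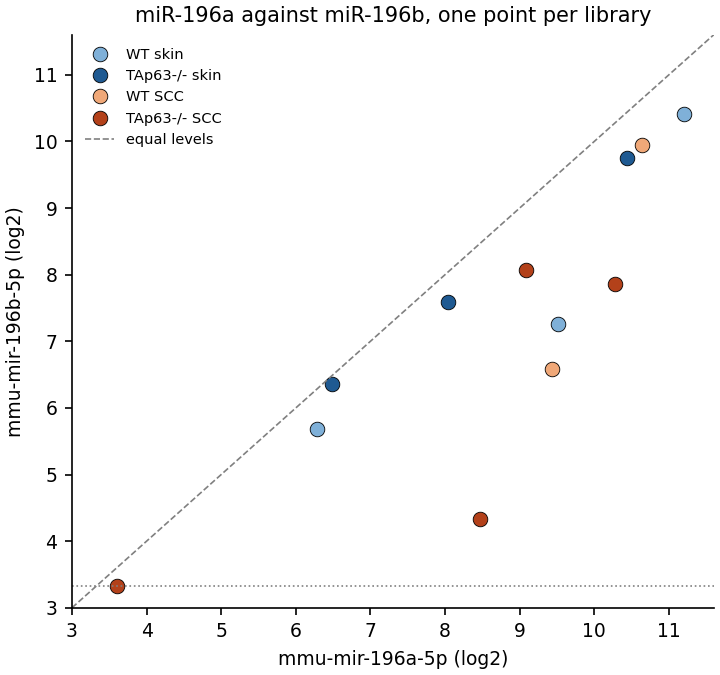
mmu-mir-196b-5p (vertical axis, log2) against mmu-mir-196a-5p (horizontal axis, log2), one point per library coloured by group, with the line of equal levels dashed and the floor dotted. All 12 points lie below the line of equal levels, skin and tumour points overlap, and TAp63-/- SCC replicates 2 and 3 lie below all skin points for mmu-mir-196b-5p.

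Among tumours, mmu-mir-196b-5p also moved with mmu-mir-10a-5p. The permutations again pooled both genotypes. Means were lower in TAp63-/- than in WT tumours for both miRNAs, by -2.36 for mmu-mir-196b-5p and -0.92 for mmu-mir-10a-5p, neither called. In TAp63-/- SCC replicate 2 mmu-mir-196b-5p was at the floor. Pearson's r was 0.955 (exact permutation p = 0.00556, adjusted p = 0.0292) and rho was 0.943 (exact permutation p = 0.0167, adjusted p = 0.0583), and r was 0.983 without the 2 libraries farthest from the median. The same relation in skin had r = -0.46 (exact permutation p = 0.333, adjusted p = 0.389), where mmu-mir-10a-5p held 1 value in 4 of 6 libraries. Between mmu-mir-10a-5p and mmu-mir-10b-5p, r in tumours was 0.606 (exact permutation p = 0.208, adjusted p = 0.292) and was -0.12 without the 2 farthest libraries. TAp63-/- SCC replicates 2 and 3, which were low for mmu-mir-10a-5p and mmu-mir-196b-5p, had more rows above the floor than the other 4 tumours, 489 and 545 against 402 to 476. The summed stroma list was 431010 and 436700 in them against 177600 to 273700, of which mmu-mir-143-3p alone made up 85.3% and 84.2%. Without it the other 6 summed to 63350 and 69040 against 39870 to 57770. The part of rows above the floor or of stroma in the relation was not tested.

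The opposite arms of the same hairpins were measured in separate rows. mmu-mir-10b-3p, the passenger arm of the Hoxd hairpin, was at 7.56, 7.66 and 7.38 in WT skin and 7.36, 6.72 and 6.43 in TAp63-/- skin. In WT SCC it was at the floor and at 4.02, and in TAp63-/- SCC at 4.07, 4.40, 4.03 and 4.32. All tumours thus lay below all skin libraries, a separation whose share among all tested miRNAs was not counted. It fell by 3.25 ± 0.26 on the log2 scale averaged over the genotypes, or 9.52-fold (adjusted p = 8.01e-06, limma). The tumour effect on the passenger was -3.87 ± 0.40 in WT (adjusted p = 0.000261, limma) and -2.63 ± 0.33 in TAp63-/- (adjusted p = 0.000252, limma). The WT value is understated by the library at the floor. Both arms of the Mir10b hairpin fell, and the passenger arm was far from the top rank that fixes the skin value of mmu-mir-10b-5p.

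The excess of mmu-mir-10b-5p over its passenger was 12.81 ± 0.49 log2 units (SD, n = 6) in skin and 13.98 ± 0.48 (SD, n = 5) in SCC, leaving out WT SCC replicate 1, where the passenger was at the floor. The difference between tissues was 2.27 in WT, resting on 1 tumour library, and 0.63 in TAp63-/-, and the average of these, 1.45, did not pass (exact permutation p = 0.0143, adjusted p = 0.0643). mmu-mir-10a-3p was at 7.01 to 7.35 in skin and at 6.92 and 6.94 in WT SCC. In TAp63-/- SCC it was at 7.05, 5.09, 3.93 and 6.80, and the lowest were replicates 2 and 3, as for mmu-mir-10a-5p. Its averaged tumour effect was -0.83 ± 0.49 (adjusted p = 0.203, limma).

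Of the other Hox cluster miRNAs, 7 were listed, all had a row and 6 were tested. Averaged over the genotypes 1 of the 6 rose and 1 fell, against 41.9% of all miRNAs called, and the median effect was -0.59 against 0.04 for all tested. In WT 1 fell and none rose, in TAp63-/- 1 rose and 1 fell, and no genotype comparison called any. The 1 that rose was mmu-mir-615-5p, from an intron of Hoxc5 on chromosome 15 at 103014910 to 103015001. It was at the floor in 5 of 6 skin libraries and at 3.91 in TAp63-/- skin replicate 2. In SCC it was at 4.32 and 4.49 in WT and at 5.54, 5.33, 6.65 and 3.52 in TAp63-/-, so that 5 of 6 tumours lay above all skin libraries. The averaged effect was 1.41 ± 0.45 (adjusted p = 0.0271, limma), with 1.74 ± 0.58 in TAp63-/- (adjusted p = 0.0376, limma). The row passed the filter on low values through the tumours, where it was high, so these values are a description, and the floor in skin sets their size and understates the change. The averaged call is lost with no filter on low rows (adjusted p = 0.0675, limma) and in 6 of the 12 fits that leave out 1 library, with adjusted p up to 0.0722 over all alternatives.

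The other arm of the Mir615 hairpin, mmu-mir-615-3p, lay at 8.34 to 8.80 in skin and 7.36 to 9.92 in SCC, with 4 tumours above and 2 below the skin range and an averaged effect of 0.53 ± 0.39 (adjusted p = 0.315, limma). The passengers mmu-mir-196a-1-3p and mmu-mir-196a-2-3p were above the floor in 7 and 6 of 12 libraries, with averaged effects of -0.77 ± 0.58 and -0.41 ± 0.35 (adjusted p = 0.318 and 0.381, limma). These arms differ in sequence between the 2 hairpins, unlike mature mmu-mir-196a-5p. mmu-mir-196a-1-3p, from the Hoxb hairpin, was above the floor in WT skin replicates 2 and 3, TAp63-/- skin replicates 1 and 2, WT SCC replicate 1 and TAp63-/- SCC replicates 1 and 4. mmu-mir-196a-5p was at 8.03 or more in each of these, but also in WT SCC replicate 2 (9.43) and TAp63-/- SCC replicate 3 (8.47), where mmu-mir-196a-1-3p was at the floor. mmu-mir-196b-3p was above the floor in WT skin replicate 3 only, the library with the highest mmu-mir-196b-5p, and was not tested.

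**Figure D5:**
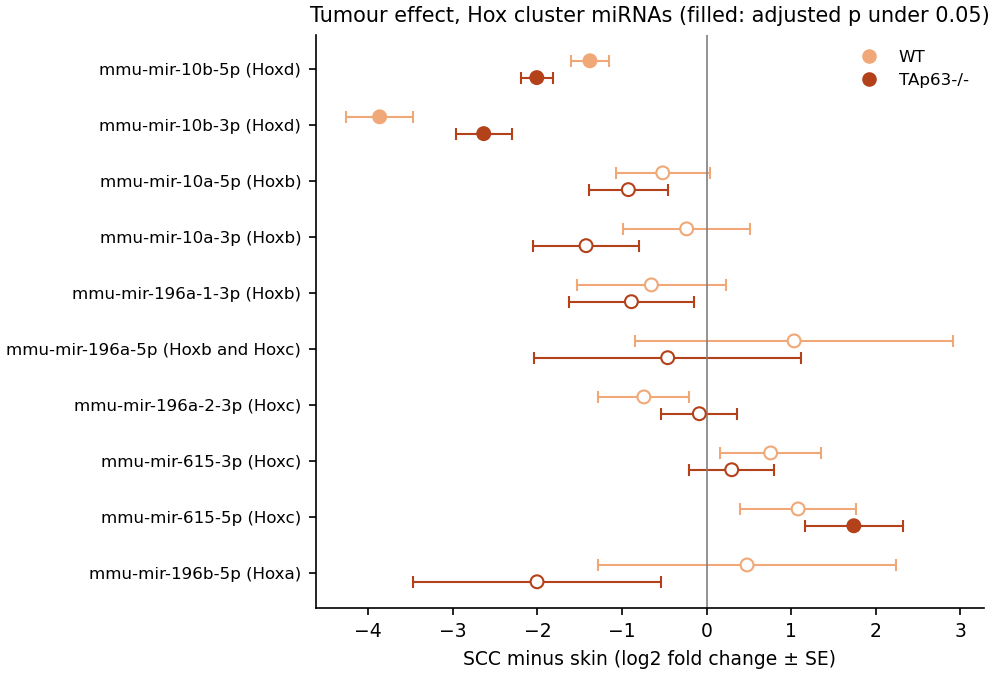
Log2 fold change of SCC against skin with its SE (horizontal axis) for the 10 tested Hox cluster miRNAs, in WT and TAp63-/-, with the Hox cluster of each hairpin in brackets and filled points where the adjusted p from limma was under 0.05. Both arms of Mir10b lie left of 0 in both genotypes with filled points, mmu-mir-615-5p is filled in TAp63-/-, and the miR-196 members have the widest errors.

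By mean level over the 12 libraries, mmu-mir-10b-5p was first of 544 at 19.10, and mmu-mir-27b-3p followed at 18.98. mmu-mir-10a-5p was at place 3 with 18.56, between mmu-mir-27b-3p and mmu-mir-21a-5p (18.39). mmu-mir-196a-5p stood at place 179 (8.62), between mmu-mir-194-5p (8.67) and mmu-mir-421-3p (8.60), and mmu-mir-196b-5p at place 239 (7.26), between mmu-mir-361-3p (7.29) and mmu-mir-337-5p (7.26). Each of these neighbours differed from its member by less than the member's within-group SD. Mature miRNAs are of near equal length, so levels of different miRNAs were set side by side without a length correction.

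The profiles most like each member were found from the mean absolute difference between profiles over the 12 libraries after each profile's own mean was subtracted, among 314 or 315 miRNAs above the floor in all libraries. For mmu-mir-10a-5p these were its own passenger mmu-mir-10a-3p (0.34), mmu-mir-181c-5p (0.36) and mmu-mir-30b-3p (0.42). For mmu-mir-10b-5p they were mmu-mir-181b-5p (0.28), mmu-mir-30a-3p (0.29) and mmu-mir-337-5p (0.29), each of which had a lower mean in SCC than in skin. The nearest profile to mmu-mir-196b-5p was mmu-mir-196a-5p (1.04), before mmu-mir-10a-3p (1.30) and mmu-mir-200a-5p (1.43). mmu-mir-196a-5p had no close match among them, the nearest being mmu-mir-200b-5p (1.37), mmu-mir-429-3p (1.44) and mmu-mir-141-5p (1.45). These 3 belong to the epithelial miR-200 family. The summed keratinocyte and epithelial list was lowest in TAp63-/- SCC replicate 2 (317800), the library with the lowest mmu-mir-196a-5p, but WT skin replicate 1, with 363900, was also low for mmu-mir-196a-5p, and its part was not tested.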

How the data were processed

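Small RNA libraries from frozen skin and tumours were sequenced, with total RNA from the miRVana kit, per the labels' protocols. The authors' deposited table gives a log2 value for each of 1251 miRNAs in 12 columns, and each column name matched 1 sample title. Submitters' processing notes name mm10, and no aligner, counting tool or miRNA annotation is given in the sources used here. The deposited log2 levels had been quantile normalized and raised to a linear floor of 10, judged from the values, and they keep no read depth. Such scaling sets each level by its rank, so a level at the top rank cannot rise further.

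The 544 rows exceeding the floor in 2 or more libraries were fitted with limma 3.58.1 in R 4.3.3, with 1 mean for each of 4 groups and moderated variances with abundance trend and robust to outlying rows (8 residual degrees of freedom). Contrasts were SCC against skin in each genotype and averaged, the genotypes against each other in each tissue, and the interaction. Benjamini-Hochberg adjustment ran over all tested rows, and a call is an adjusted p under 0.05. The fit was also run on simulated data with normally distributed noise. These had no floor, quantile normalization or fixed top rank, so they do not bear on rows at the top rank or near the floor. Ranks, within-library differences and shares were tested by two-sided exact permutation within genotype or tissue, with scipy 1.17.1, adjusted over 18 tests. Replicates are numbered in accession order.

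The members, marker lists and tests were chosen with earlier results of these data known. Named miRNAs are the 4 members, all other Hox cluster miRNAs, rows sharing a seed, the 3 profiles nearest to each member, its neighbours in mean level, and marker lists by counts and sums; some list members are also given singly, and any other is said to be so or is a library's top miRNA. Mature sequences come from RefSeq and hairpin positions from the GENCODE annotation of mm10. Alternatives varied the variance model, low-value filter, pseudocount (1 or 10), scaling, library weights, samples fitted, the test, and the libraries left out.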

Additional observations from a re-analysis of the deposited data

How the results depend on the processing

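The averaged fall of mmu-mir-10b-5p kept a p under 0.05 in all 24 alternatives, between -1.76 and -1.57 on the log2 scale. Within WT and within TAp63-/- its p also stayed under 0.05 in every alternative that gave a value. These p-values were adjusted, except in an exact permutation of the levels. That test gave an unadjusted p of 0.00286 for the average and 0.0286 within TAp63-/-. Median-ratio scaling moved the median tumour effect of all tested miRNAs from 0.04 to 0.16. Where a value changed direction or call, the cause was not tested. With library quality weights, mmu-mir-196a-5p in TAp63-/- against WT skin was 0.50 (main -0.68), and 22 miRNAs were called there instead of 0. With no filter, 57 instead of 99 were called in WT tumours against skin. The single call between tumours of the 2 genotypes became 0 with a filter of 6 libraries, no abundance trend, no filter, or only the groups compared. As a percent of rows above the floor, the rank of mmu-mir-196b-5p in SCC against skin was -2.02, and with a pseudocount of 10 the arm difference of miR-10a in SCC against skin was -0.016. Leaving out each library in turn gave these ranges. In SCC against skin, the averaged effect ran from -0.39 to 0.998 for mmu-mir-196a-5p and from -1.60 to 0.078 for mmu-mir-196b-5p. In WT these were -0.32 to 2.14 and -1.20 to 2.16, and in TAp63-/- mmu-mir-196a-5p ran from -1.38 to 0.96. In TAp63-/- against WT skin they were -2.04 to 0.41 and -0.93 to 1.43. The interaction of mmu-mir-10a-5p ran from -0.92 to 0.11. The rank of mmu-mir-10b-5p in SCC ran from 3.42 to 4 places, that of mmu-mir-196a-5p from -43.2 to 19.7, and the members' share from -15.6 to -13.6 percentage points, where 5 of the 12 fits missed the threshold for the first and the last (adjusted p 0.0533 to 0.0643) with fewer arrangements. The miR-10a arm difference ran from -0.16 to 0.37 by tissue and -0.36 to 0.17 by genotype, that of miR-10b from -0.23 to 0.0049 by genotype, and mmu-mir-196a-5p minus mmu-mir-196b-5p from -0.85 to 0.23 by genotype. Called miRNAs ran from 30 to 116 for WT SCC against skin (30 without WT SCC replicate 1, 65 and 61 without WT skin replicates 1 and 2), 0 to 10 between tumours (10 without WT SCC replicate 2), 0 to 2 between skins and 0 to 10 for the interaction (10 without WT SCC replicate 2). Where WT SCC kept 1 library, it was assumed to vary like the other groups. No paired analysis was possible because the labels give no replicate numbers, and numbers in accession order pair nothing. Depth is unknown, and 2 WT tumours limit every comparison with them.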
